A study of Mus musculus with 15 samples.

Results

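Cyclin D1 (Ccnd1), cyclin D2 (Ccnd2), cyclin D3 (Ccnd3) and the cyclin-dependent kinase inhibitors p21 (Cdkn1a) and p27 (Cdkn1b) were followed through sections of mouse embryos in which transcripts had been counted pixel by pixel. They are 5 of the 30534 features in the count tables, and all 5 had counts in each of 11 transcript libraries. The genes were chosen by values measured in these same libraries, namely their levels at each stage and their pattern across pixels at E10. Stage levels and tissue patterns of the 5 genes are therefore given as descriptions with no test. Differences in level between pixel widths, which played no part in the choice, were tested.

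D cyclins are made in response to growth signals and bind CDK4 or CDK6. The active kinases phosphorylate the retinoblastoma protein, which releases E2F factors and lets a cell enter S phase. p21 and p27 belong to the Cip/Kip family: both bind cyclin-CDK complexes, block CDK2 and also help D cyclins to assemble with their kinases. p21 is a transcriptional target of p53 and rises as muscle precursors leave the cell cycle, whereas much of the control of p27 lies in the breakdown of the protein. Embryonic tissues usually contain more than one D cyclin, and which one prevails differs between tissues.

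The sections came from frozen embryos at embryonic days 10, 11 and 12 (E10, E11, E12). Barcodes delivered through 2 crossed sets of microfluidic channels gave each position of a 50 by 50 grid its own barcode pair, with a pixel width of 10, 25 or 50 µm. There were 3 libraries of E10 at 50 µm, 1 of E10 at 25 µm, 2 of E10 at 10 µm, 2 of E11 at 25 µm, 2 of E11 at 10 µm and 1 of E12 at 50 µm. The labels give neither a strain, a genotype or a treatment nor the embryo or body region of a section, so p-values measure the spread between sections, which may be technical. For 4 of the E10 sections, counts of 22 antibody tags were also available.

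Pixels counted as tissue, whose total came to 0.1 or more of the library's 95th percentile, numbered 829 to 2271 per library and held 1563489 to 11998765 counts, with a median of 843.5 to 11332 counts and 638.5 to 4350 genes per pixel. Sections differed in content. Summed levels in CPM (counts per 1000000 tissue counts of the library) of 7 neural progenitor markers ranged from 662 to 2021 at E10, from 128 to 1045 at E11 and stood at 391 at E12, and those of 8 liver markers from 2.64 to 7.05 at E10, from 54.9 to 3661 at E11 and at 3529 at E12. Neuron markers ranged from 595 to 2542 CPM at E10 and from 123 to 581 at E11, with no overlap, and stood at 632 at E12. Red cell markers ranged from 16540 to 32828 CPM at E10 and from 14939 to 22085 at E11, against 89594 at E12. Mesenchyme and cartilage markers ranged from 1064 to 2356 CPM at E10 and from 1257 to 1445 at E11, against 3732 at E12. E11 10 µm replicate 2 stood apart, with 128 CPM of progenitor markers, 123 of neuron markers and 3661 of liver markers. In bulk sums such as these, fewer cells of a type and less RNA per cell cannot be told apart.

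One irregularity touched the D cyclins directly. In all 3 E10 50 µm libraries a single line of pixels, position 28 of the second axis, held far more Ccnd1 than the 2 lines on either side. It held 390 counts in replicate 1, where the neighbouring lines gave an expectation of 70.9, 722 against 231 in replicate 2, and 1702 against 345 in replicate 3. The same position gave 23 against 8.40 in E10 10 µm replicate 2, while the ratio was 0.985 in E10 10 µm replicate 1 and between 0.672 and 1.85 in the other 6 libraries. In the 3 E10 50 µm libraries, 10 of the 5663 genes that could be compared there exceeded 2.5 times their expectation each time (0.177%), Ccnd1, Ubap2, Luc7l and Usp7 among them. At 2.5 times the neighbours, 9 lines were found over the 5 genes and 11 libraries. 7 of them were Ccnd1 lines, 1 was a Ccnd2 line (position 12 of the first axis in E10 50 µm replicate 2, 1465 counts against 344) and 1 a Cdkn1b line of 30 counts. The origin of these lines was not tested. For part of the results on Ccnd1 and Ccnd2 described below, values without the pixels of these lines are given as well. The other results include these pixels.

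Positions are from GENCODE M21 on build GRCm38, and the annotation behind the counts is not given in the sources used here. Ccnd1 lies at chr7:144929931-144939925 on the minus strand, Ccnd2 at chr6:127125162-127152193 on the minus strand and Ccnd3 at chr17:47505051-47599691 on the plus strand. Cdkn1a lies at chr17:29090976-29100727 and Cdkn1b at chr6:134920401-134925513, both on the plus strand. RefSeq promoter windows of 300 bases on GRCm38.p6, from 250 before to 50 after a start, were matched for 3 of the 5 genes: Ccnd3, Cdkn1a and Cdkn1b. The windows of the inhibitors are shown because Cdkn1a was high at E12 in pixels with muscle transcripts. Cdkn1b, of the same family, had few counts in those pixels. Any part of these sequences in the levels was not tested. The first window of Cdkn1a (chr17:29090729-29091028, plus strand), the second (chr17:29093519-29093818, plus strand) and the window of Cdkn1b (chr6:134920151-134920450, plus strand) read as follows, with matches to the searched motifs in capitals.
Cdkn1a, first start: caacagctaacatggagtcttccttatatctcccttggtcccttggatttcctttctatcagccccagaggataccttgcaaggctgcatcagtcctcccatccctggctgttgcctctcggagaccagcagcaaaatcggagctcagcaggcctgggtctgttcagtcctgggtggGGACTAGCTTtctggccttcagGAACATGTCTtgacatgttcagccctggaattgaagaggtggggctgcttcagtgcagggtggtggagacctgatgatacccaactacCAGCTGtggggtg
Cdkn1a, second start: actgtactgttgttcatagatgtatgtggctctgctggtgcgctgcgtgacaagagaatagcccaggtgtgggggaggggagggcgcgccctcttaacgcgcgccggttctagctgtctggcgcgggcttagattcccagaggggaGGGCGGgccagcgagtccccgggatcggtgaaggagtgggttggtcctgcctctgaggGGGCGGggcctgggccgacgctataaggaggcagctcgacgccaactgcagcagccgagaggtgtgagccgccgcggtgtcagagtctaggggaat
Cdkn1b: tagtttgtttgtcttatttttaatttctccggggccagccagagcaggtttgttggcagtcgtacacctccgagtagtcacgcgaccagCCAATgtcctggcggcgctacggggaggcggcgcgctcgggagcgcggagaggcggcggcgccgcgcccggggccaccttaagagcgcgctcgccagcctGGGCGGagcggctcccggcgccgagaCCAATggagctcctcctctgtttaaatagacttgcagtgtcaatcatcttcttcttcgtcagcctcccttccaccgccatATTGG
The motifs searched on both strands were the E-box CAGCTG, the CCAAT box, the GC box GGGCGG and the p53 half-site, and none overlapped another in these windows. The first Cdkn1a window held 1 CAGCTG and 2 p53 half-site matches, the second held 2 GGGCGG, and the Cdkn1b window held 3 CCAAT and 1 GGGCGG. Among 32851 promoter windows of this length, 16.3% held CAGCTG, 37.4% CCAAT, 35.7% GGGCGG and 8.36% a p53 half-site. A match is a description of the letters and not a site of binding.

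Ccnd2 was the D cyclin with the most counts in each library. Its level was 1354, 1843 and 2417 CPM in the E10 50 µm libraries (1354, 1710 and 2482 without the channel lines). At E10 25 µm it was 1509, and at E10 10 µm 1036 and 1640. It was 1028 and 1076 CPM at E11 25 µm, 1121 and 532 at E11 10 µm, and 1142 at E12. The E10 values reached higher, yet the ranges overlapped, since E10 10 µm replicate 1 lay below 2 of the E11 libraries and the lowest value of all, 532, was that of the section rich in liver markers.

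Ccnd1 stood at 694, 517 and 1015 CPM at E10 50 µm, 950 at E10 25 µm, and 448 and 563 at E10 10 µm. At E11 it was 323 and 382 CPM at 25 µm and 429 and 201 at 10 µm, and at E12 it was 368. No E11 value reached an E10 value, although the closest pair, 429 and 448, nearly met. Without the channel lines the E10 50 µm values were 668, 458 and 813 CPM, the lowest E10 value was 449 and the highest E11 value 426, so the order held.

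Ccnd3 varied least among the D cyclins. It measured 190, 206 and 187 CPM at E10 50 µm, 215 at 25 µm, and 175 and 108 at 10 µm, then 244 and 177 at E11 25 µm, 191 and 213 at E11 10 µm, and 282 at E12. The E12 section had the highest value of the 11, and E10 10 µm replicate 2 the lowest.

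The inhibitors were scarce. Cdkn1b stood at 34.7, 44.1 and 40.1 CPM at E10 50 µm, 48.0 at 25 µm, and 42.0 and 38.7 at 10 µm. It was 26.6 and 24.2 CPM at E11 25 µm, 38.5 and 24.1 at E11 10 µm, and 34.3 at E12, so that 1 E11 library overlapped the E10 range. Cdkn1a was at 14.5, 19.1 and 16.6 CPM at E10 50 µm, 2.56 at 25 µm (4 counts), and 8.92 and 7.17 at 10 µm. At E11 it was 7.90 and 5.47 CPM at 25 µm (40 and 42 counts) and 14.005 and 4.01 at 10 µm (36 and 11 counts), and at E12 50.8 (330 counts). The E12 section exceeded every other library in Cdkn1a.

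**Figure D1:**
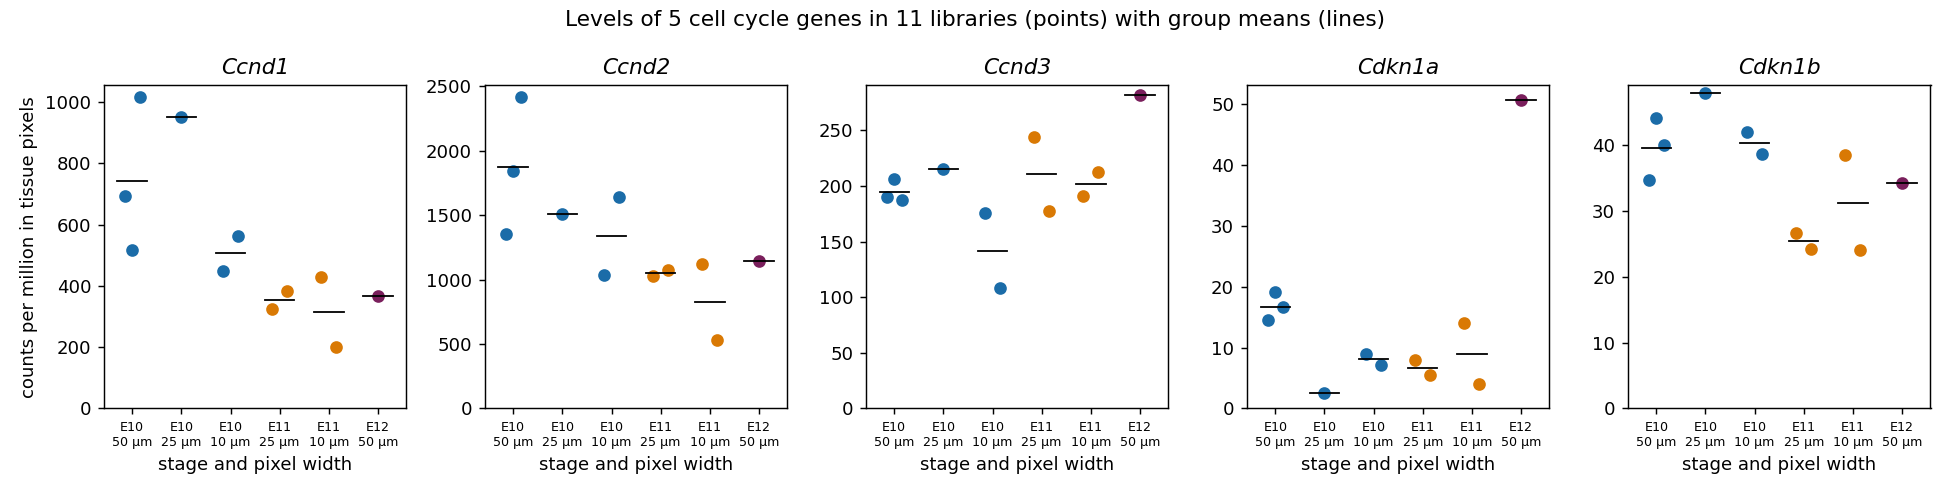
Each panel plots the level of 1 gene in CPM over tissue pixels against stage and pixel width, with a point per library and a line at the group mean. Ccnd1 lay between 448 and 1015 in the E10 libraries and between 201 and 429 in the E11 libraries, and Cdkn1a reached 50.8 in the E12 library.

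Levels of different genes were compared per kilobase of exon, on the assumption that counts grow with length. Whether this holds for these libraries was not tested, and the order and shares per kb depend on it. Without division by length Ccnd2 came first in each library. It made up 56.2 to 71.8% of D cyclin counts, and Ccnd1 20.1 to 35.5%. Ccnd2 had a median of 121 CPM per kb (56.5 to 257), Ccnd1 95.1 (42.7 to 216), Ccnd3 21.8 (12.3 to 32.2), Cdkn1b 8.46 (5.29 to 10.5) and Cdkn1a 2.51 (0.720 to 14.3). That order was found in 8 of 11 libraries. Ccnd1 and Ccnd2 were neighbours that changed places: Ccnd1 came first in E10 50 µm replicate 1 (147 against 144 CPM per kb) and at E10 25 µm. Leaving out the channel lines lowered Ccnd1 in that replicate from 694 to 668 CPM. Levels per kb were not recomputed without the lines, so its first place there is not secure. Cdkn1a exceeded Cdkn1b in the E12 library. Of the D cyclin level per kb, Ccnd2 made up 41.5 to 59.5%, Ccnd1 33.3 to 52.2% and Ccnd3 4.03 to 19.7%.

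To set the members' stage levels against the rest of the transcriptome, counts summed over tissue pixels were fitted for 18233 genes with edgeR's quasi-likelihood test. For E11 against E10, averaged over the 10 µm and the 25 µm libraries, the fitted log2 differences were −0.97 for Ccnd1, −0.52 for Ccnd2, +0.35 for Ccnd3, +0.85 for Cdkn1a and −0.55 for Cdkn1b. The Cdkn1a value rests on the 4 counts of the E10 25 µm library, the only one at that width. For the E12 library against E10 at 50 µm they were −1.04, −0.76, +0.49, +1.55 and −0.25 in the same order, and −0.84 for Ccnd1 without the channel lines. None of the 5 was past the adjusted threshold of 0.05 in either contrast, against 3.6% of all genes for E11 and 2.14% for E12, a count from which nothing is read since stage levels guided the choice. The count was 1 of 5 for E11, Ccnd1, by DESeq2, with no filter on low counts and without E11 10 µm replicate 1, and 1 of 5 for E12, Cdkn1a, with no filter and without either E11 10 µm replicate. It was 0 under the other alternatives run. Ccnd1 was 1 of 5 members with lower E11 than E10 values and no overlap, and 5.43% of all genes had that pattern. No member showed the reverse, and 3.41% of genes did. All 5 members at E12 lay outside the range of the 3 E10 50 µm libraries, as did 62.9% of genes.

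Of 80 other cell cycle genes in 9 lists (CDK partners, other cyclins, other inhibitors, Rb and E2F, replication, mitosis, p53 targets, turnover and upstream regulators), 2 passed the test for E11 against E10. The lists were drawn up with earlier results of these data known, which limits what their tests and counts can show. Ccne1, the E-type cyclin that activates CDK2 at S phase entry, rose by a log2 value of 1.09 (SE 0.245, edgeR adjusted p = 0.0333). It stood at 47.1, 38.3 and 39.3 CPM at E10 50 µm, 30.1 at 25 µm, and 47.5 and 42.6 at 10 µm, against 70.9, 55.4, 70.4 and 98.1 at E11, with no overlap. Trp53inp1, a stress-induced p53 target, fell by 1.29 on the log2 scale (SE 0.272, adjusted p = 0.0258), from 31.3 to 42.2 CPM at E10 to 10.7, 21.6, 15.2 and 10.9 at E11. Both calls depended on single libraries. Without E10 10 µm replicate 1 the adjusted p was 0.0551 for Ccne1 and 0.0565 for Trp53inp1, without the first E11 25 µm library 0.0891 and 0.0661, and without the second E11 10 µm library 0.0782 and 0.0652. Without E10 10 µm replicate 2 that of Ccne1 was 0.0743. Summed neuron markers were also lower at E11 with no overlap, and Trp53inp1 was higher in neuron-rich than in progenitor-rich pixels (log2 difference +0.57). The part of section content in these calls was not tested. Of the 80, 20 had an unadjusted p under 0.05. The list genes' median log2 difference was −0.19, against 0.05 over all genes.

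For E12 against E10, 0 of the 80 list genes passed edgeR's adjusted test, 11 had an unadjusted p under 0.05, and DESeq2 called 0. Their median was −0.21, against −0.04 over all genes. Cdk6, a catalytic partner of D cyclins, differed by +0.96 (SE 0.372, adjusted p = 0.247), Cdkn1c, the third Cip/Kip inhibitor (p57), by +0.91 (adjusted p = 0.527), Mki67, a proliferation marker, by −0.39 (adjusted p = 0.695), Ccng1, a p53 target, by +0.24 and Cdk4 by +0.14. This contrast and that of 10 against 50 µm below share the 3 E10 50 µm libraries. With 1 E12 library, the fit assumes that E12 sections vary as the other groups do.

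Pixel width gave no change that passed the test in any member. At E10, 10 against 50 µm, the log2 differences by edgeR were −0.51 for Ccnd1 (SE 0.357, adjusted p = 0.672), −0.46 for Ccnd2 (SE 0.376, adjusted p = 0.750), −0.44 for Ccnd3 (SE 0.291, adjusted p = 0.653) and +0.04 for Cdkn1b (SE 0.272, adjusted p = 0.984). Without the channel lines the Ccnd1 value was −0.34. Cdkn1a had the widest difference, −1.03 (SE 0.429, adjusted p = 0.386, unadjusted p = 0.0322). Its 10 µm values, 8.92 and 7.17 CPM, lay below all 3 of 50 µm, and those of Ccnd3 did so too, 2 of 5 members where 17.1% of genes had that pattern. Over all genes, 0.11% were called.

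At E11, 10 against 25 µm, the differences were −0.29 for Ccnd1 (SE 0.387, adjusted p = 0.851), −0.48 for Ccnd2 (SE 0.408, adjusted p = 0.732), −0.18 for Ccnd3 (SE 0.316, adjusted p = 0.893), +0.30 for Cdkn1a (SE 0.501, adjusted p = 0.888) and +0.17 for Cdkn1b (SE 0.311, adjusted p = 0.895). Over all genes, 2.07% were called. The spread between the 2 libraries at 10 µm, 1121 and 532 CPM of Ccnd2, exceeded the difference between the widths. No list gene passed edgeR's adjusted test in either width contrast (0 of 80 in each, 3 and 5 at an unadjusted p under 0.05, 0 and 0 by DESeq2). At E10 the values were +0.26 for Cdk4, −0.52 for Cdk6, −0.62 for Cdkn1c, −0.16 for Mki67 and −0.07 for Ccng1. At E11 they were −0.14, −0.38, +0.32, −0.41 and −0.35 in that order.

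Within sections, Ccnd1 and Ccnd2 were strongly patterned and the other 3 at most weakly. Moran's I, which is near 0 for a random arrangement of pixels and approaches 1 when neighbours are alike, was 0.590, 0.513 and 0.693 for Ccnd2 in the E10 50 µm libraries, ranks 8 of 12396, 32 of 11615 and 4 of 12252 detected genes. Ccnd1 had 0.372, 0.266 and 0.329, ranks 78, 222 and 152. Ccnd3 had 0.051, 0.107 and 0.085, Cdkn1a 0.011, 0.036 and 0.047, and Cdkn1b 0.030, 0.003 and 0.033, where the median gene had 0.023 to 0.026. These values for Ccnd2 took part in its choice and carry no test. Without the channel lines Ccnd2 had 0.604, 0.452 and 0.664 and Ccnd1 0.367, 0.265 and 0.328. Moran's I grows with counts per pixel. With pixels thinned to 1000 counts the mean was 0.138 for Ccnd1 and 0.230 for Ccnd2.

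The pattern of both genes was present at the other stages and widths as well. Ccnd2 had 0.142 at E10 25 µm, 0.193 and 0.250 at E10 10 µm, 0.265 and 0.395 at E11 25 µm, 0.277 and 0.075 at E11 10 µm, and 0.313 at E12. Ccnd1 had 0.153, 0.111 and 0.131, 0.284 and 0.370, 0.112 and 0.093, and 0.208 in the same order. The section with few neural markers, E11 10 µm replicate 2, gave the lowest value of each. Cdkn1a had 0.108 at E12, rank 738 of 9522. Cdkn1c, related to p21 and p27, had 0.403, 0.391 and 0.399 at E10 50 µm, far above either of its relatives, which were detected in 14.2 to 16.2% (Cdkn1a) and 32.9 to 36.0% (Cdkn1b) of these pixels, against 92.9 to 97.1% for Cdkn1c.

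The domains of Ccnd1 and Ccnd2 were not exclusive. At E10 50 µm, 94.5, 89.1 and 97.5% of tissue pixels held counts of both. Of the 10% of pixels with the highest Ccnd1 level, 2.33% (2 of 86 pixels) in replicate 1, 13.3% (11 of 83) in replicate 2 and 7.14% (6 of 84) in replicate 3 were also among the highest 10% for Ccnd2. Without the channel lines the shares were 1.19, 7.69 and 10.1%. The separation was plain in replicate 1, whereas in the other two the shares lay nearer to the 10% that such pixels make up of all tissue. Of the highest Ccnd1 pixels, 5.81, 0 and 3.57% were among the highest for Ccnd3 (4.76, 3.85 and 10.1% without the lines), and of the highest Ccnd2 pixels 12.8, 6.02 and 5.95%. The other libraries had shallower pixels, of which 9.95% (E11 10 µm replicate 2) to 69.0% (E10 10 µm replicate 1) held both Ccnd1 and Ccnd2. There 7.28% (E11 25 µm replicate 2) to 17.0% (E10 10 µm replicate 1) of the highest Ccnd1 pixels were among the highest for Ccnd2. The part of depth and pixel width was not tested. Across blocks of 3 by 3 pixels, Pearson's r between Ccnd1 and Ccnd2 ran from −0.35 to 0.30 over the 11 libraries (median 0.05). Without the channel lines it ran from −0.40 to 0.30 (median 0.06). Between Cdkn1a and Cdkn1b r ran from −0.10 to 0.22 (median 0.12). Blocks of a library share its depth and are not independent.

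**Figure D2:**
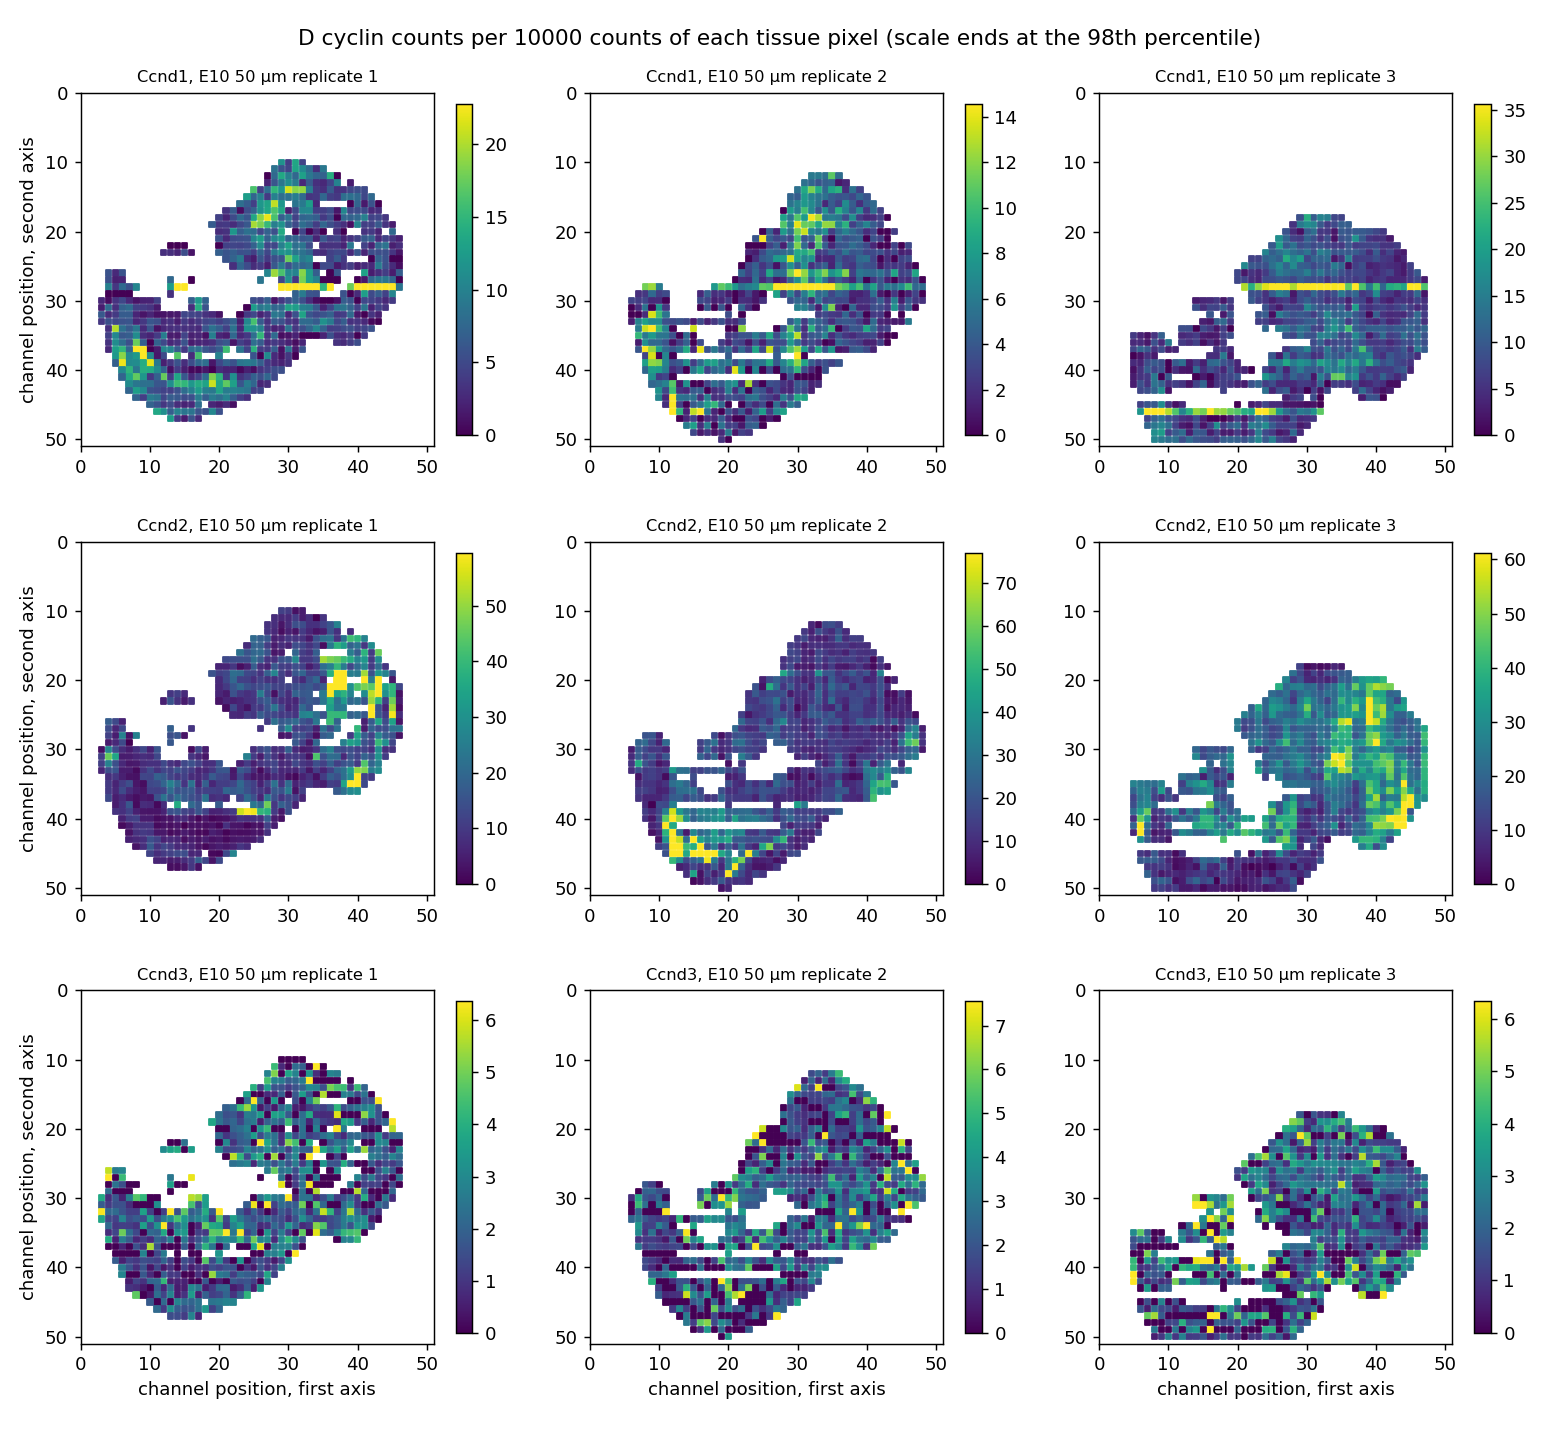
Maps of Ccnd1, Ccnd2 and Ccnd3 in the 3 E10 50 µm libraries, with the channel positions of the grid as axes, a square per tissue pixel and colour for the gene's counts per 10000 counts of the pixel (each scale ends at the 98th percentile). Ccnd1 and Ccnd2 formed patches, which were apart most plainly in replicate 1, and Ccnd3 had no such patches. The line at position 28 of the second axis is visible in all 3 Ccnd1 maps, and another at position 46 in that of replicate 3.

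To see which tissues carried each gene, the 10% of pixels with the highest mean score over a marker list, with at least 3 of its genes detected, were compared with the remaining tissue pixels of the same library. Each pixel can hold several cells, of more than one type. Marker-rich pixels were not of the same depth as the rest. The median ratio of their counts ran from 0.79 for mesenchyme and 0.81 for heart to 1.63 for progenitors, 1.85 for liver and 2.14 for eye, and its part in the levels was not tested.

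Ccnd1 was high in neural progenitor pixels. It was higher there than elsewhere in 10 of 10 libraries, with a mean log2 ratio of 0.35 ± 0.19 (SD, n = 10), and 0.39 without the channel lines, when 2.95% of genes were higher in each library. At E11 25 µm replicate 1 it reached 467 against 295 CPM, and at E11 10 µm replicate 1 595 against 394. Progenitor pixels were deeper than the others in all 10 (1.21 to 2.07 times). Ccnd1 was lower in red cell pixels in 11 of 11 libraries (−0.57 ± 0.28, SD, n = 11, background 7.9%), for example 172 against 388 CPM at E12. In heart muscle pixels it was lower in 9 of 9 (−0.70 ± 0.43, SD, n = 9, background 9.56%), but in E10 10 µm replicate 1 by 445 against 448 CPM only. Without the channel lines it was lower there in 8 of 9 (mean −0.69), with 449 against 449 CPM in that library. At E11 25 µm heart pixels it fell to 132 against 334 and 172 against 396 CPM. In the 3 E10 libraries with eye and pigment pixels the ratio was +0.28 ± 0.03 (SD, n = 3, background 12.5%), and 0.20 without the channel lines, with 2 of 3 libraries higher.

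Ccnd2 was low in liver pixels. The 4 libraries with such pixels gave 439 against 1101 and 591 against 1136 CPM at E11 25 µm, 342 against 571 at E11 10 µm replicate 2, and 378 against 1282 at E12. The mean log2 ratio was −1.19 ± 0.45 (SD, n = 4), and 28.2% of genes were lower in all 4. In eye and pigment pixels Ccnd2 was lower in 3 of 3 libraries (−0.83 ± 0.40, SD, n = 3, background 18.5%), at 1314 against 1874, 658 against 1063 and 692 against 1677 CPM, where Ccnd1 was the higher of the pair relative to the rest of the section. In progenitor pixels Ccnd2 was lower in 8 of 10 (−0.31 ± 0.45, SD, n = 10). Its neuron pixels differed between libraries (0.33 ± 0.54, SD, n = 10), with 2962 against 1472 CPM in E10 10 µm replicate 2 and 1116 against 1381 in E10 50 µm replicate 1.

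Ccnd3 was lower in neuron pixels in 10 of 10 libraries (−0.47 ± 0.23, SD, n = 10, background 5.52%), with 130.6 against 196 CPM in E10 50 µm replicate 1 and 97.7 against 188 in E11 25 µm replicate 2. In progenitor pixels it was lower in 9 of 10 (−0.32 ± 0.27, SD, n = 10). It was higher in red cell pixels in 10 of 11 libraries (0.29 ± 0.21, SD, n = 11), the direction opposite to that of Ccnd1, and in heart pixels in 7 of 9 (0.31 ± 0.36, SD, n = 9).

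**Figure D3:**
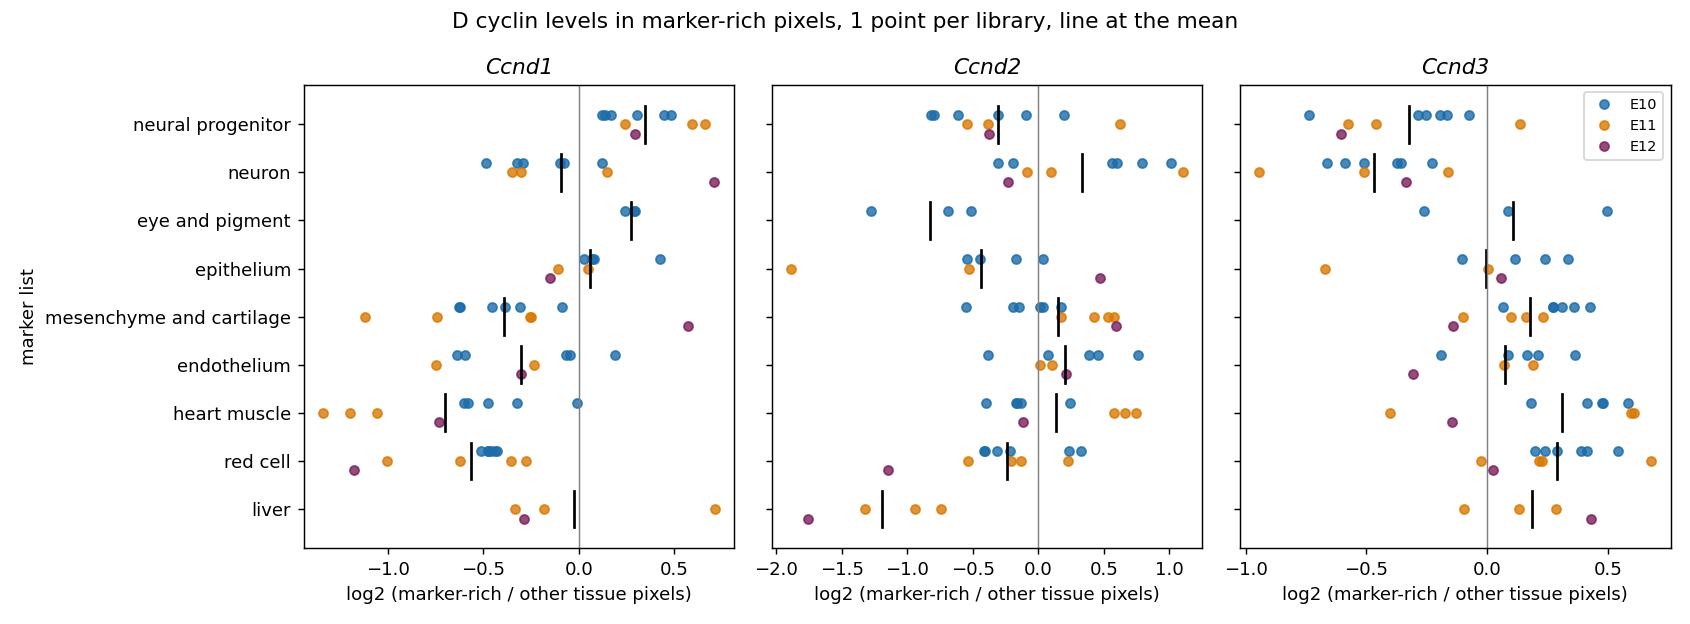
For each D cyclin, the log2 ratio of its level in marker-rich pixels to that in the other tissue pixels, by marker list on the vertical axis, with a point per library coloured by stage and a line at the mean. Ccnd1 lay right of 0 in neural progenitor pixels and left of 0 in red cell and heart muscle pixels, Ccnd2 left of 0 in liver pixels, and Ccnd3 left of 0 in neuron pixels.

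The inhibitors showed less. The mean log2 ratios of Cdkn1b lay between −0.27 in heart and 0.08 in neuron pixels in 8 of 9 marker classes. In mesenchyme and cartilage pixels it was −0.59 ± 0.84 (SD, n = 10). Cdkn1a had too few counts for most classes. In epithelial pixels it gave 19.2 against 14.1, 38.7 against 17.9 and 30.7 against 16.1 CPM in the E10 50 µm libraries, from 16, 19 and 12 counts, and 54.0 against 50.6 at E12. In progenitor pixels it was lower in 8 of 9 libraries, from 0 to 15 counts each.

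Neuron-rich and progenitor-rich pixels of the same section were then compared directly, with the library as a block (10 libraries, 8520 genes). Pixels that fell in both classes were left out. At E12 these were 35, which left 104 neuron-rich and 33 progenitor-rich pixels. In E11 10 µm replicate 1, 19 were left out, with 31 and 102 remaining. As background, neural progenitors divide and neurons have left the cycle. Ccnd1 and Ccnd2 went in opposite directions. Ccnd1 was lower in neuron-rich pixels in 9 of 10 libraries, for instance 509 against 903, 385 against 602 and 975 against 1145 CPM at E10 50 µm (688 against 1008 in replicate 3 without the channel lines). The exception was E12, at 675 against 585 CPM, and in E10 10 µm replicate 2 the levels were nearly equal, at 623 and 625. Ccnd2 was higher in neuron-rich pixels in 9 of 10, with 1116 against 813, 3181 against 1268 and 2212 against 1481 CPM at E10 50 µm, 2982 against 1434 in E10 10 µm replicate 2, and 1146 against 1182 at E12. The fitted log2 differences were −0.44 for Ccnd1, +0.67 for Ccnd2, −0.23 for Ccnd3 and +0.19 for Cdkn1b, or −0.49, +0.65, −0.18 and +0.20 without the channel lines. In E10 50 µm replicate 2 the Ccnd2 values were 2349 against 1253 CPM without them. Cdkn1a did not pass the filter on low counts. Since tissue pattern guided the choice of these genes, no test is attached to them. Progenitor-rich pixels were deeper than neuron-rich ones in 10 of 10 libraries, by 1.14 to 1.39 times.

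The list genes, which were tested, were mostly lower in neuron-rich pixels. Since the lists were drawn up with earlier results of these data known, their p-values and counts describe these libraries only. Of 69 that could be fitted, 43 passed edgeR's adjusted test, 4 higher and 39 lower, while 25.2% of all genes passed, 12.6% higher and 12.6% lower. Their median log2 difference was −0.44, against −0.03 over all genes. All 5 E, A and B cyclins were lower, Ccnb1, which drives mitotic entry, by −0.82, Ccne2 by −0.76, Ccne1 by −0.69 and Ccna2 by −0.60. Of the replication genes, 11 of 12 were lower, led by Rrm2, a ribonucleotide reductase subunit, at −0.91 and Mcm3, part of the replicative helicase, at −0.89 (adjusted p = 1.57e-07), with the origin licensing gene Cdc6 at −0.82 and the helicase subunit Mcm7 at −0.75. All 8 mitosis genes were lower, with Bub1, a spindle checkpoint kinase, at −0.86 and Mki67 at −0.78 (SE 0.0731, adjusted p = 2.69e-10), the kinetochore gene Cenpf at −0.76 and the topoisomerase gene Top2a at −0.64.

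Nearer to the D cyclins, 4 of 7 CDK partners were lower, Cdk2 by −0.61, Cdk6 by −0.57, Cdk1 by −0.40 and Cdk4 by −0.19, and 6 of 12 Rb and E2F genes, including E2f7 at −0.87, E2f2 at −0.70, E2f1 at −0.70 and Rbl1, which encodes p107, at −0.65. Cdkn1c was higher, at +0.66 (SE 0.0769, adjusted p = 2.50e-08), and Cdkn3, a phosphatase acting on CDKs, lower at −0.65, of 3 other inhibitors. Skp2, the F-box protein that marks p27 for destruction, was lower at −0.65 and Gsk3b, a kinase that phosphorylates cyclin D1, higher at +0.26, of 7 turnover genes. Of 8 genes of p53 and its targets, Trp53inp1 was +0.57, Zmat3 +0.41 and the antiproliferative gene Btg2 −0.45. Of 7 upstream regulators, Foxm1 was −0.44 and Ptch1, a Hedgehog receptor, −0.41. Of the 29 named genes, 20 passed under every alternative that gave a value. Of the other 9, Rbl1, Cdkn3, Cdk4, Btg2, Zmat3 and Foxm1 missed the threshold without E10 50 µm replicate 1 (adjusted p = 0.106, 0.0598, 0.0664, 0.153, 0.0919 and 0.0642). Btg2, Zmat3 and Foxm1 did so without E10 50 µm replicate 2 (0.0726, 0.0961 and 0.123), and Btg2, Foxm1 and Ptch1 without replicate 3 (0.118, 0.0925 and 0.0554). Without E11 25 µm replicate 2 it was Cdk4, Btg2 and Zmat3 (0.0952, 0.0575 and 0.0681), and without the E12 library Cdk4 (0.0911). Zmat3 was lost without the E10 25 µm library (0.0501) or E10 10 µm replicate 1 (0.0728), and Trp53inp1 and Foxm1 without E10 10 µm replicate 2 (0.0509 and 0.0504). Cdk4, Btg2 and Foxm1 missed it without the channel lines (0.0723, 0.0565 and 0.0562). With the highest 20% of pixels as classes, Cdk2, Cdk4, Btg2, Zmat3 and Foxm1 missed it (0.170, 0.0990, 0.202, 0.196 and 0.0521). With the highest 5% these were Cdk4, Btg2, Zmat3 and Ptch1 (0.0653, 0.0820, 0.0637 and 0.0864). By DESeq2, Btg2 and Foxm1 missed it (0.0861 and 0.0556), and with no filter on low counts Zmat3 (0.0674).

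**Figure D4:**
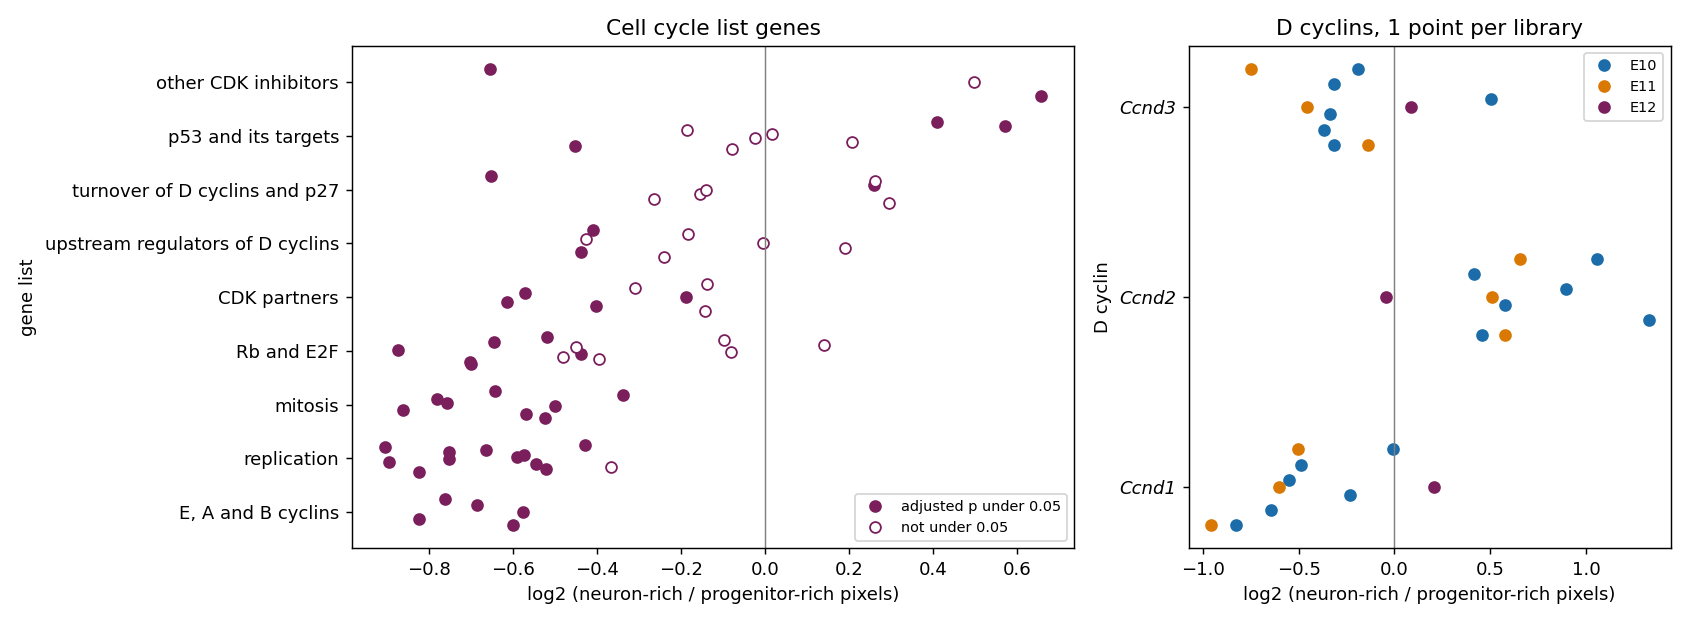
Left, log2 ratio of neuron-rich to progenitor-rich pixels for the cell cycle list genes, a point per gene, filled where the adjusted p was under 0.05. Right, the same ratio for the D cyclins with a point per library: Ccnd1 lay left of 0 and Ccnd2 right of 0 in 9 of 10 libraries each.

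At E12 Cdkn1a had a pattern it did not show at E10. The genes whose block values followed it most closely were muscle genes: Myh3, embryonic myosin heavy chain (r = 0.56), Mylpf, a fast myosin light chain (0.55), Mybpc1, a myosin-binding protein (0.55), Tnnc2, fast troponin C (0.54) and Tnnt1, slow troponin T (0.51), among 8412 genes in 1 library. In the 2 E11 25 µm libraries, with 40 and 42 Cdkn1a counts, r was 0.22 and 0.31 for Myh3 and 0.21 and 0.21 for Mylpf. It was 0.15 and 0.15 for Tnnt1, and 0.26 for Tnnc2 in replicate 1. Mybpc1 had no value in either, and Tnnc2 none in replicate 2. Muscle and somite markers gave no library the 20 pixels needed for a class. Pixels with any count of Myog or Myod1, the myogenic regulators, were therefore taken, a choice made after this pattern was seen. In the 157 such pixels at E12 Cdkn1a stood at 136 CPM (101 counts, exact 95% Poisson interval 110 to 165), and in the other 1378 at 39.8 CPM (229 counts, 34.8 to 45.3). The intervals cover counting error only. The myogenic pixels had a median of 4195 counts and the others 3497.5. Outside these pixels Cdkn1a was still above the 14.5 to 19.1 CPM of the E10 50 µm libraries.

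Of the other Cip/Kip inhibitors, Cdkn1c was also higher in these pixels, at 2000 against 1240 CPM. Cdkn1b was at 20.1 against 36.1 CPM, from only 15 counts in these pixels and 208 outside. Ccnd1 was at 376 against 366 CPM, Ccnd2 at 1271 against 1125 and Mki67 at 616 against 747. In heart-rich pixels of E12 Cdkn1a was at 158 against 42.9 CPM. There the heart genes Myh6 and Myl7 stood at 2128 against 20.1 and 2738 against 46.1, but Myh3 at 869 against 159 and Myog at 54.0 against 15.5 were higher as well. At E10 50 µm the heart-rich pixels had Cdkn1a at 16.3 against 14.3, 29.7 against 18.1 and 1.63 against 17.6 CPM, and Myh3 at 0 to 1.41 CPM. At E11 25 µm, 4 and 3 pixels had a Myog or Myod1 count and gave Cdkn1a 4 and 6 counts, too few for a level.

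**Figure D5:**
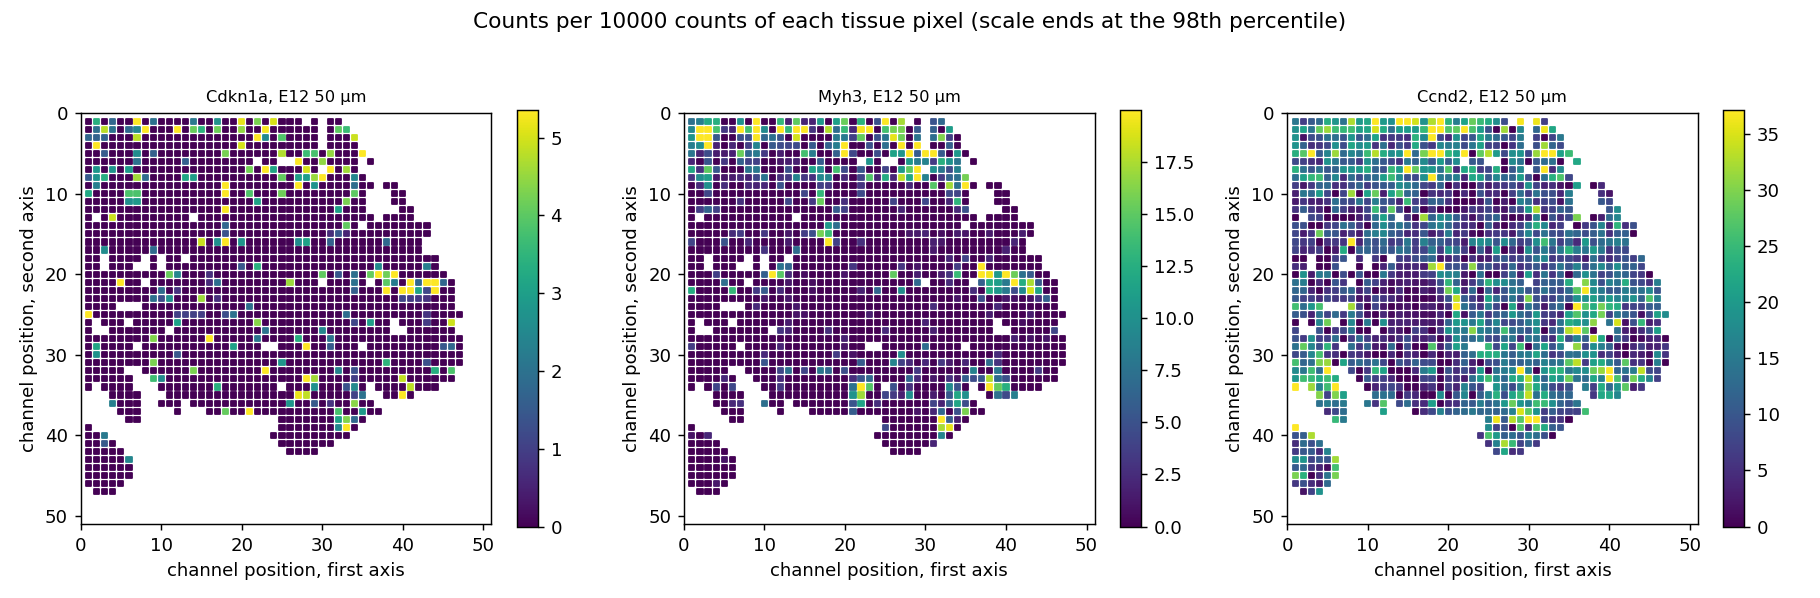
Maps of Cdkn1a, Myh3 and Ccnd2 in the E12 50 µm library, with the channel positions of the grid as axes, a square per tissue pixel and colour for counts per 10000 counts of the pixel (each scale ends at the 98th percentile). Cdkn1a and Myh3 were high in overlapping groups of pixels (r = 0.56 across blocks). Ccnd2 was spread over broader areas.

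Genes most like each member at E10 50 µm were found by the mean r over blocks in the 3 libraries, among 2955 genes. For Ccnd2 they were Col4a1, a basement membrane collagen (0.46), Cacng4 (0.45), Cyb5r3 (0.43), Col3a1, a fibrillar collagen (0.42) and Dynll2 (0.42), and without the channel lines Col3a1 led (0.49), followed by Col4a1 (0.45) and Col1a2 (0.44). At E12 its closest genes were Fbn2, a microfibril protein (0.68), Mdk, the growth factor midkine (0.66) and Col11a1 (0.66). For Ccnd1 they were Hsp90aa1 (0.45), Ubap2 (0.40), Sox2 (0.39), Luc7l (0.39) and H2afy (0.37). Ubap2 and Luc7l are among the 10 genes of the line at position 28. Without the lines neither was among the closest 5, which were led by Sox2, a neural progenitor factor (0.44), Ptma (0.43) and Syncrip (0.41), with Sox2 positive in all 7 other libraries where it had enough counts.

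For Ccnd3 the closest genes were Lpp (0.50), Igf2, a growth factor (0.47), Tnnt2, cardiac troponin T (0.47), Sparc (0.46) and Myl9 (0.45), and in the other 8 libraries Lpp had a median r of 0.03. Cdkn1b had Cul1, a scaffold of the SCF ubiquitin ligase, at 0.31, and Cdkn1a had Klf3 at 0.20, weak values that describe these libraries only. All of these r values are over blocks that share a section and its depth.

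In the 4 E10 sections with antibody tags, member levels were compared between the highest 10% of pixels for each of 22 antibodies and the rest. Antibodies are named only where the ratio had the same sign in all 4 sections, taking the largest ratios. The shared sign therefore follows from the choice, and how many antibodies met this condition is not given. Ccnd1 was lower in pixels high for CD309-KDR, a VEGF receptor of endothelium (mean log2 ratio −0.53 ± 0.18, SD, n = 4), for CD63 (−0.51 ± 0.14) and for the endothelial adhesion protein ESAM (−0.44 ± 0.20). In CD63-high pixels Ccnd3 went the other way, at 0.28 ± 0.26 (SD, n = 4). Its other values were 0.34 ± 0.16 for PanendothelialCellAntigen and −0.25 ± 0.17 for FCER1A. In pixels rich in endothelial transcripts, a class of 8 libraries over the stages, no D cyclin had the same sign in every library. Of 3219 genes, 57 were higher and 227 lower in all 8. For Ccnd2 the largest was −0.24 ± 0.21 for Notch1, or −0.10 without the channel lines. Cdkn1b was at −0.51 ± 0.21 for CD304-NPR1. For the endothelial tags it went both ways, at 0.39 ± 0.20 for CD309-KDR and −0.32 ± 0.08 for PanendothelialCellAntigen. CD63-high pixels were shallower than the rest, with 0.539 to 0.690 of their median counts, and the part of depth was not tested.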

How the data were processed

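The submitters deposited, for each library, a table of whole-number counts per gene symbol (or antibody) and pixel, with no normalization; the labels' protocols describe cryosections of frozen embryos, Nextera XT libraries and paired 100-base HiSeq reads. The submitters' processing notes name CASAVA 1.8.2 and the build GRCh38, with no role given although the samples are mouse. Aligner, annotation, use of strand and collapsing of duplicates are not given in the sources used here.

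Groups were taken from stage and pixel width in the labels. Counts were summed over tissue pixels and fitted with edgeR 4.0.16 (quasi-likelihood test, TMM factors, filterByExpr, Benjamini-Hochberg adjustment over all tested genes, threshold 0.05) in R 4.3.3 as 6 group means over 11 libraries, with 5 residual degrees of freedom and a common biological variation of 31.8%. DESeq2 1.42.0 was an alternative. Same-group libraries differed beyond sampling noise (chi-square per degree of freedom 24.6 to 70.0). Moran's I used log2(count per 10000 + 1) and 4 grid neighbours. Ratios between pixel classes used 1 prior count and libraries with at least 5 expected counts. Likeness used log2(CPM + 10) over blocks of 3 by 3 pixels with at least 5 tissue pixels, and genes with at least 500 counts.

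All 5 members are named; list genes are those called, up to 4 per list and direction by size, or Cdk4, Cdk6, Cdkn1c, Mki67 and Ccng1 where none was called; like genes are the 5 highest. The members and lists were chosen with earlier results of these data known. The fits were checked on simulated counts. Other alternatives were size factors, the low-count filter, all pixels, pixel class size, single libraries left out and, chosen after seeing the data, the pixels of the channel lines left out and the Myog or Myod1 pixels.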

Additional observations from a re-analysis of the deposited data

How the results depend on the processing

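Counts of called genes depended on the settings. For E11 against E10 (656 genes), DESeq2 called 1428 and no filter on low counts 1988, with 4 and 5 list genes in place of 2. For E12 against E10 (390), no filter gave 1328. For 10 against 50 µm at E10 (20), DESeq2 gave 413 (239 higher, 174 lower, against 1 and 19) and no filter 731. For 10 against 25 µm at E11 (378), no filter gave 870, with 2 list genes in place of 0. The E11 widths share replicate numbers, but deviations of same-numbered libraries correlated at only 0.0756, and with the number as a block 234 genes were called. Leaving out single libraries gave 144 to 1465 genes for E11 against E10 (fewest without E11 25 µm replicate 1, most without E11 10 µm replicate 1), 98 to 969 for E12, 0 to 164 and 33 to 463 for the widths, and 1586 to 2373 for neuron-rich against progenitor-rich pixels (2147), with list counts of 0 to 4, 0, 0, 0 and 34 to 45. The causes were not tested. Values that changed sign without a single library, none of them called, ranged for 10 against 50 µm from −0.025 to 0.18 for Cdkn1b, −0.50 to 0.27 for Ccng1 and −0.081 to 0.57 for Cdk4. For 10 against 25 µm they ranged from −0.89 to 0.14 for Ccnd1, −0.42 to 0.11 for Ccnd3, −0.81 to 0.93 for Cdkn1a, −0.16 to 0.45 for Cdkn1b, −0.67 to 0.082 for Ccng1, −0.44 to 0.12 for Cdk4, −0.74 to 0.060 for Cdk6 and −0.91 to 0.98 for Cdkn1c. Mean Moran's I fell from 0.322 to 0.138 for Ccnd1 and from 0.599 to 0.230 for Ccnd2 with pixels thinned to 1000 counts. It ranged from 0.30 to 0.35 and from 0.55 to 0.64 without single libraries. Mean log2 ratios by tissue without single libraries were 0.31 to 0.37 for Ccnd1 in progenitor, −0.59 to −0.50 in red cell, −0.79 to −0.62 in heart and 0.27 to 0.29 in eye pixels (0.20 without the channel lines), −1.34 to −1.003 for Ccnd2 in liver and −0.98 to −0.60 in eye pixels, and −0.50 to −0.41 for Ccnd3 in neuron pixels. Depth limits Cdkn1a most, at 4 to 177 counts per library before E12.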
